A study of Mus musculus with 6 samples.

Results

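Ucp1, Ucp2 and Ucp3 encode the uncoupling proteins, and their expression was examined in the hearts of mouse pups in which the human sex-determining gene SRY was activated ectopically. They are 3 of the 18138 gene symbols of the array, and every probe with one of these symbols was taken, which gave 6 of 25697 probes, 1 for Ucp1, 3 for Ucp2 and 2 for Ucp3. The genes were selected on their normalized values in hSRY-ON against hSRY-OFF hearts, so their levels and differences are given as a description without a test. Total RNA came from 3 hSRY-ON and 3 hSRY-OFF male pups of the FVB strain (FVB/N by the methods) at postnatal day 6, with 1 BeadChip array for each heart, on which the brightness of the beads carrying a probe reflects the abundance of its transcript.

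The hSRY-ON pups carried the Signalox-hSRY transgene, which was integrated at the H11 locus in a single transgenic line and places FLAG-tagged human SRY together with EGFP behind the ubiquitously active CAG promoter after recombination. The Cre recombinase came from the oocytes of Ddx4-Cre mothers, so the transgene was switched on in the zygote, and hSRY-ON pups without the Ddx4-Cre transgene itself were selected. The methods describe hSRY-OFF mice as carriers of the unrecombined transgene, while the results of the study describe the control littermates as carrying Ddx4-Cre alone or no transgene. Which of these genotypes the 3 control hearts had is not settled by the sources used here. No heart is labelled with a litter or an array position.

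Uncoupling proteins belong to the SLC25 family of carriers in the inner mitochondrial membrane. Ucp1 is the protein of brown fat that lets protons return to the matrix without making ATP, so that the energy of fuel oxidation is released as heat, and it is activated by fatty acids after adrenergic stimulation. Ucp2 is found in many tissues and is known from macrophages and lymphocytes, and Ucp3 is found mainly in skeletal muscle, heart and brown fat, where its expression follows the supply of fatty acids through PPAR transcription factors. Adult heart muscle is not known as a site of Ucp1 expression, whereas young mice carry brown fat close to the heart and the great vessels.

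In the mouse genome Ucp3 and Ucp2 lie next to each other on the same strand, with Ucp3 at chr7:100472991-100486432 and Ucp2 at chr7:100493337-100499629 (GRCm38.p6, RefSeq), separated by 6904 bases. Ucp1 lies on another chromosome, at chr8:83290348-83298456. The sequences below are the 250 bases before the start site that the RefSeq promoter table gives for each gene (GRCm38.p6, plus strand, 5′ to 3′), and are shown so that the windows of the 3 genes can be read side by side. For Ucp1 and Ucp3 this start site is the first base of the gene record, whereas for Ucp2 it is chr7:100493358, 21 bases after the first base of the record, so that the last 21 bases of its window lie within the annotated gene. Capitals mark matches, on either strand, to the letters AGGTCA (the core of nuclear receptor sites such as those of PPAR), TGACG (the core of cyclic AMP response elements), TATAAA (the TATA box), GGGCGG (the GC box) or AACAAT (the core bound by SRY and SOX proteins). No match overlapped another in these 3 windows.
Ucp1, chr8:83290098-83290347: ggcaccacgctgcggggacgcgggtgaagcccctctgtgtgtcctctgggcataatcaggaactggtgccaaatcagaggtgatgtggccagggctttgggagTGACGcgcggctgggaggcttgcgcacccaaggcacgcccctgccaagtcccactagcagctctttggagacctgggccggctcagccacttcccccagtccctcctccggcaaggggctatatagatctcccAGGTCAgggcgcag
Ucp2, chr7:100493108-100493357: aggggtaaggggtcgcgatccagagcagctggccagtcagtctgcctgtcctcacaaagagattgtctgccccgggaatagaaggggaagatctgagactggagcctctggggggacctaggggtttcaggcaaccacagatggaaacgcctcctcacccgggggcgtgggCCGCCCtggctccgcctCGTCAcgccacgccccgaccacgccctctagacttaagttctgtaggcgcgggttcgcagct
Ucp3, chr7:100472741-100472990: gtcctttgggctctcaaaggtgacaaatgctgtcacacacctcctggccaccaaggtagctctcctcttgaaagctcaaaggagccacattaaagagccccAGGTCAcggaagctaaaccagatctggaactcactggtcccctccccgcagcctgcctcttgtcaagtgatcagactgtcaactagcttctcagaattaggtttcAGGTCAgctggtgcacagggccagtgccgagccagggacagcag

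The Ucp3 window held AGGTCA at 2 places, from 149 to 144 and from 44 to 39 bases before the start. The Ucp1 window held it once, from 14 to 9 bases before the start, together with TGACG from 147 to 143 bases before it. The Ucp2 window held no AGGTCA, and held TGACG and GGGCGG on the minus strand, from 62 to 58 and from 79 to 74 bases before the start site of the promoter table. Neither AACAAT nor TATAAA was found in these 3 windows. The search was for exact letters, so variants of a motif, such as other forms of the TATA box, were not marked. Of the 32851 windows of this length in the table, 14.0% held AGGTCA, 17.8% TGACG, 32.7% GGGCGG, 12.4% TATAAA and 9.42% AACAAT on either strand. These matches describe the letters of the windows only, and the known enhancer of Ucp1 lies farther upstream.

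Over the whole array, between 12138 and 13172 probes were above background in each heart (a detection p-value under 0.05 against the negative-control beads). Median intensity was lowest in hSRY-OFF replicate 3, at 156, and 167 to 201 on the other arrays. Tested were the 12970 probes, of 9660 genes, that were above background in 3 or more hearts. After background correction, quantile normalization and log2 (the neqc function of limma, with 16 added before log2), limma called 3567 of these probes (27.5%) at an adjusted p-value under 0.05, 50.1% of them higher in hSRY-ON. This split was 38.5% higher without normalization between arrays and 65.7% higher when each array was scaled to the median of its detected probes, settings under which the median change over the tested probes moved to -0.12 and 0.10 on the log2 scale. All 20 measured markers of cardiomyocytes were above background often enough to be tested, so the hearts carried the transcripts of their labelled tissue.

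The deposited intensity of the Ucp1 probe was 156, 187 and 470 in hSRY-OFF replicates 1, 2 and 3. In hSRY-ON replicates 1, 2 and 3 it was 1805, 581 and 1061. The probe rose above background in each of the 3 hSRY-ON hearts, but among the controls only on that of replicate 3, and in the other two it lay under the lowest detected intensity of the array, 189 and 200. It therefore passed the filter on dim probes mainly through the hSRY-ON hearts. On the deposited scale each hSRY-ON heart was brighter than each control, although hSRY-ON replicate 2 was 1.24 times as bright as hSRY-OFF replicate 3.

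On the normalized log2 scale Ucp1 stood at 4.64, 5.03 and 8.88 in hSRY-OFF replicates 1, 2 and 3, and at 10.81, 8.80 and 9.94 in hSRY-ON replicates 1, 2 and 3. Here the groups overlapped, since hSRY-ON replicate 2 minus hSRY-OFF replicate 3 was -0.07. The overlap was absent without normalization between arrays (8.44 in the highest control against 8.81 in the lowest hSRY-ON heart), with scaling to the median (8.70 against 8.86) and with scaling on the probes not differentially expressed (8.81 against 8.82). Over the tested probes, the hearts of the groups did not overlap for 45.2%, and for 23.6% every hSRY-ON heart was the higher.

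The fitted log2 fold change of Ucp1, hSRY-ON minus hSRY-OFF, was 3.67 with a standard error of 1.07, from means of 6.18 ± 2.34 (SD, n = 3) for the controls and 9.85 ± 1.0 (SD, n = 3) for the hSRY-ON hearts. Its standard error was above the median of 0.16 over the tested probes. Without background correction the log2 fold change was 2.13, and with normexp and an offset of 50 it was 2.74. Leaving out single hearts, it ranged from 2.89 without hSRY-OFF replicate 1 to 5.07 without hSRY-OFF replicate 3. Against the 2 control hearts whose arrays did not detect the probe, the mean of the 3 hSRY-ON hearts was at least 22.4-fold higher, taking for each of these controls the dimmest signal that its array still detected.

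**Figure D1:**
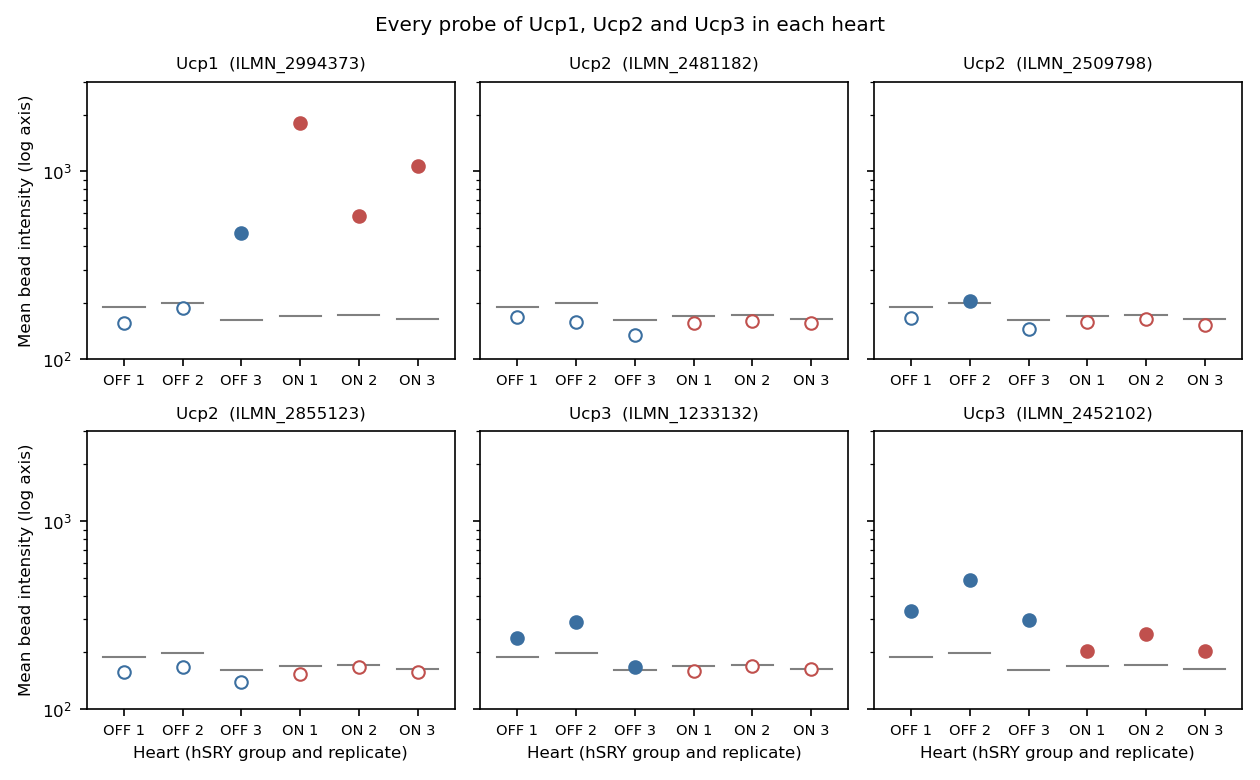
Deposited mean bead intensity (log axis) of the 6 probes of Ucp1, Ucp2 and Ucp3 in each of the 3 hSRY-OFF (blue) and 3 hSRY-ON (red) hearts. Filled points were above background, open points were not, and each grey line is the lowest intensity that counted as detected on that array. Ucp1 reached 581 to 1805 in hSRY-ON hearts and 470 in hSRY-OFF replicate 3, the Ucp2 points stay at the grey lines or under them except for 204 in hSRY-OFF replicate 2, and the brighter Ucp3 probe was 203 to 252 in hSRY-ON against 298 to 484 in hSRY-OFF hearts.

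The spread of Ucp1 among hearts of the same group was wide for the array. Its SD of 2.34 among the hSRY-OFF hearts ranked 1 of the 12970 tested probes. This rank held under every alternative in which Ucp1 was tested and hSRY-OFF replicate 3 was kept, including intensities without background correction, where the SD was 1.13. Without hSRY-OFF replicate 3 the SD between the remaining controls was 0.29 and ranked 1727. Among the hSRY-ON hearts the SD of 1.0 ranked 37. This spread was looked at after the values had been seen.

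The brighter probe of Ucp3 (ILMN_2452102) had intensities of 331, 484 and 298 in hSRY-OFF replicates 1, 2 and 3. Its intensities were 203, 252 and 203 in hSRY-ON replicates 1, 2 and 3. It was above background on all 6 arrays, and each hSRY-ON heart lay under each control. The normalized log2 mean was 7.75 ± 0.38 (SD, n = 3) for the controls and 6.49 ± 0.36 (SD, n = 3) for the hSRY-ON hearts. The log2 fold change was -1.26 with a standard error of 0.24, which is 2.40-fold lower in hSRY-ON. For 21.6% of all tested probes every hSRY-ON heart was the lower.

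The other Ucp3 probe (ILMN_1233132) had intensities of 238, 289 and 168 in hSRY-OFF replicates 1, 2 and 3, all above background. It had intensities of 159, 169 and 164 in hSRY-ON replicates 1, 2 and 3, none of them above background, with detection p-values of 0.134, 0.0664 and 0.0514. On the deposited scale the groups overlapped, since the dim array of hSRY-OFF replicate 3 gave 168 against 169 in hSRY-ON replicate 2. On the normalized log2 scale they did not, with 6.34, 6.74 and 5.83 in hSRY-OFF against 5.03, 5.23 and 5.28 in hSRY-ON hearts. The probe was at least 1.97-fold lower in hSRY-ON hearts, with means of 5.18 ± 0.13 and 6.30 ± 0.46 (SD, n = 3 each). It passed the filter only through the control hearts, and so had to differ to be tested.

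Both Ucp3 probes were lower in hSRY-ON under every setting of background, scaling, replicate block and hearts that was run. Leaving out single hearts, their log2 fold change ranged from -1.47 to -1.11 for the brighter probe and from -1.40 to -0.89 for the dimmer. Without background correction it was -0.64 and -0.35, so its size depended on this step.

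None of the 3 Ucp2 probes was tested. Their intensities were 135 to 204 in control hearts and 153 to 168 in those with hSRY-ON. Of 18 measurements, 1 was above background, that of probe ILMN_2509798 in hSRY-OFF replicate 2 at 204 (detection p-value 0.0401). The lowest intensity that counted as detected was 161 to 200 on the arrays of the controls and 164 to 172 on those of hSRY-ON hearts. A difference in Ucp2 between the groups was therefore not detectable on these arrays, and no fold change is given. A probe at background does not show that a gene is silent. The probe of Slc25a4, the adenine nucleotide carrier known as abundant in heart muscle, was at background on all 6 arrays as well.

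The genes beside the uncoupling proteins on the chromosome were looked up in the same fit. Dnajb13, a co-chaperone gene 3381 bases after Ucp2, changed by 0.27 (standard error 0.30) and was not called (limma, adjusted p = 0.546). C2cd3, a centriole gene that ends 2831 bases before Ucp3, changed by -0.26 (standard error 0.12) and was not called either (limma, adjusted p = 0.142). Elmod2, the only measured neighbour of Ucp1, was at background on every array. The other annotated neighbours, Gm42027, Gm17999, Gm32327 and Gm8463, and the lncRNA Gm10603, had no matching symbol in the table.

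Among carriers related to the uncoupling proteins, 6 of 10 measured genes were tested, 2 were lower in hSRY-ON hearts and 0 were higher at an adjusted p-value under 0.05, a share of 33.3% beside 28.8% of all tested genes (14.9% higher and 13.9% lower). Its median log2 fold change of -0.34 stood beside 0.00 for all tested genes. Slc25a11, the oxoglutarate carrier, had normalized log2 values of 12.84, 12.78 and 12.88 in hSRY-OFF and of 11.53, 11.61 and 11.83 in hSRY-ON hearts, a decrease of 1.18 on the log2 scale (log2 fold change -1.18, standard error 0.13, limma adjusted p = 0.000801). Slc25a3, the phosphate carrier that supplies ATP synthase, changed by -1.09 (standard error 0.17, limma adjusted p = 0.00334). The carriers also called uncoupling proteins were not called. Slc25a14 changed by -0.21 (standard error 0.21) and Slc25a30 by 0.06 (standard error 0.19), while Slc25a27 was above background in 2 control hearts only and was not tested. The dicarboxylate carrier Slc25a10 changed by -0.47 (standard error 0.18, limma adjusted p = 0.0931) and the adenine nucleotide carrier Slc25a5 by -0.05 (standard error 0.11).

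Genes of fatty acid oxidation and targets of PPAR, with which Ucp3 is known to share regulation, were mostly lower in hSRY-ON hearts. Of 22 tested genes of this list 16 fell, 1 rose and 5 were not called, so that 77.3% were called beside 28.8% of all tested genes, and the median log2 fold change was -1.10 beside 0.00. The largest decrease was that of Plin5 (listed as 2310076L09Rik), which coats lipid droplets beside mitochondria, at -3.37 on the log2 scale (standard error 0.20, limma adjusted p = 7.27e-05). Decr1, an auxiliary enzyme for unsaturated fatty acids, followed with -1.83 (standard error 0.13). Pdk4, the kinase that shuts pyruvate out of oxidation, fell from 11.61, 12.06 and 11.89 in hSRY-OFF to 10.39, 11.03 and 10.19 in hSRY-ON hearts, which is -1.32 as a log2 fold change (standard error 0.23, limma adjusted p = 0.0055). The only gene that rose was Angptl4, an inhibitor of lipoprotein lipase, at 0.67 (standard error 0.20, limma adjusted p = 0.0395). Its call was lost under 8 of 16 alternatives, among them each heart left out except hSRY-ON replicate 3, with adjusted p-values from 0.00912 to 0.216 over the alternatives.

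Of the transcription factors and coactivators known to act on uncoupling protein genes, 17 were tested, 6 fell and 1 rose (41.2% called beside 28.8% of all tested genes), with a median log2 fold change of -0.21, also with dim genes at their bounds. Rxrg, a heart- and muscle-enriched partner of PPAR factors, was above background on every hSRY-OFF and on no hSRY-ON array and was at least 7.22-fold lower (limma adjusted p = 2.49e-05). Ppara, the PPAR of oxidative tissues, was likewise above background in the controls alone and at least 1.36-fold lower (limma adjusted p = 0.0104, and 0.0644 without background correction). Ppargc1b and Esrra, a coactivator and a nuclear receptor of mitochondrial genes, changed by -1.35 (standard error 0.21) and -0.90 (standard error 0.13). Sirt3, a mitochondrial deacetylase, changed by -0.88 (standard error 0.19, limma adjusted p = 0.013). Ppargc1a, the cold-induced coactivator of Ucp1, was at 9.79, 10.20 and 10.61 in hSRY-OFF and at 8.86, 10.15 and 9.70 in hSRY-ON hearts and was not called (limma adjusted p = 0.209). Pparg, the PPAR of fat cells, changed by 0.20 (standard error 0.19) and was not called, and Ppard was above background on no array. The remaining calls were Srebf1, at least 1.28-fold lower (limma adjusted p = 0.0327), and the LXR gene Nr1h3, at 0.75 (standard error 0.21, limma adjusted p = 0.0339). Of these calls, that of Srebf1 was lost under 8 of 11 and that of Nr1h3 under 7 of 16 alternatives, including several in which 1 heart was left out. Rxrg, Ppara and Srebf1 passed the filter only through the control hearts, and so had to differ to be tested. Their adjusted p-values and their place among the genes that fell do not allow for this.

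**Figure D2:**
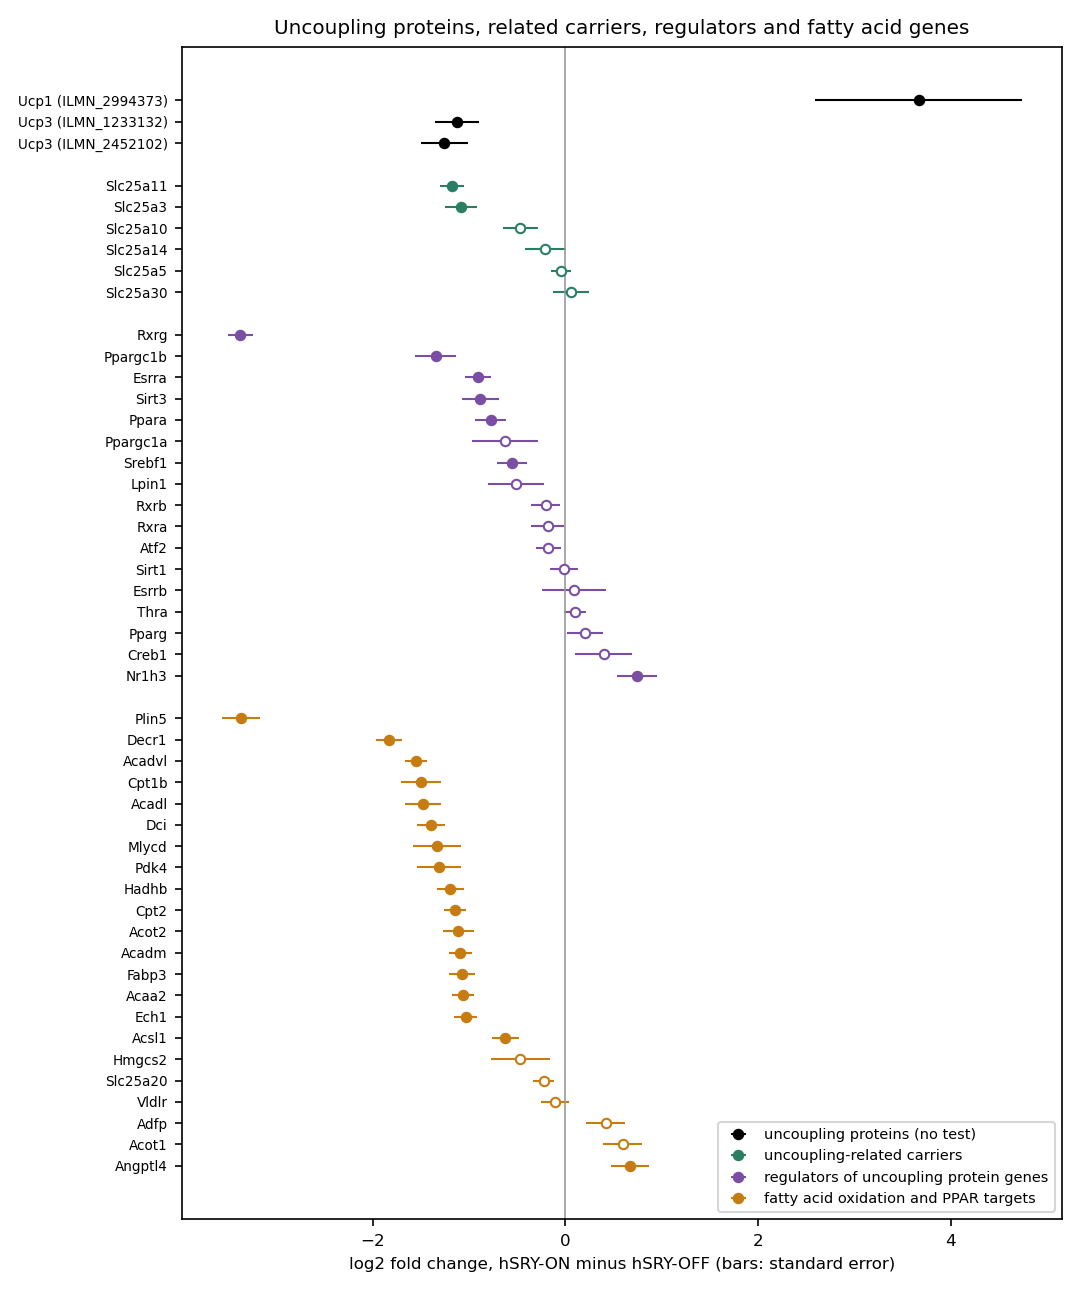
Log2 fold change, hSRY-ON minus hSRY-OFF, with its standard error, for the tested probes of Ucp1 and Ucp3 (black, no test), carriers related to them (green), regulators (purple) and genes of fatty acid oxidation and PPAR targets (orange); n = 3 hearts in each group. Filled points of the last 3 sets passed an adjusted p-value under 0.05 in limma, and the values of ILMN_1233132, Rxrg, Ppara and Srebf1, at background in every hSRY-ON heart, are fitted values for which the text gives bounds. Ucp1 stands apart at 3.67, while the Ucp3 probes at -1.13 and -1.26 lie within the range of the fatty acid genes, from -3.37 to 0.67.

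The genes whose profile over the 6 hearts was most like that of each Ucp probe were found by the root mean square difference of the centred log2 values, over 9658 other genes. For the brighter Ucp3 probe they were Pdk4 (0.12, Pearson's r = 0.985 over 6 hearts), Il2rg, Rab33a, Klra19 and Iigp2 (0.18). For the other Ucp3 probe they were Rasgrp3 (0.09, r = 0.991), Ndufb9, Sfxn4, Cox6c and Ndufaf1 (0.10), of which Ndufb9, Cox6c and Ndufaf1 encode subunits or an assembly factor of the respiratory chain. The median difference over all genes was 0.73 and 0.66 for these probes. This measure includes the difference between the groups by which the Ucp genes were selected, and carries no test.

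No gene came as close to Ucp1. The smallest differences were 1.26 for Dgkk, 1.27 for Kif5c, 1.29 for Car3, 1.30 for Cldn23 and 1.32 for Phactr1, against a median of 2.36. Car3, a carbonic anhydrase known as abundant in fat and skeletal muscle, had the highest correlation with Ucp1 among these (r = 0.909 over 6 hearts) and was the one with hSRY-OFF replicate 3 above hSRY-ON replicate 2. Its normalized log2 values were 5.42, 5.99 and 7.59 in hSRY-OFF and 8.55, 6.60 and 9.01 in hSRY-ON replicates 1, 2 and 3. It changed by 1.72 (standard error 0.72) and was not called (limma, adjusted p = 0.116). Dgkk and Kif5c were above background in the hSRY-ON hearts alone. They therefore had to differ between the groups to be compared with Ucp1.

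**Figure D3:**
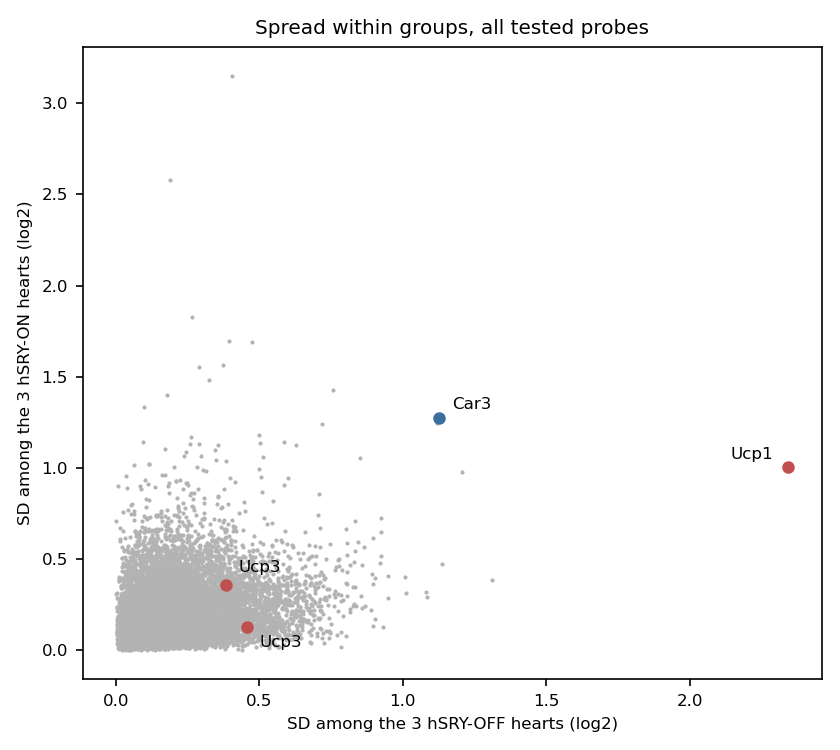
SD of the normalized log2 values among the 3 hSRY-OFF hearts (x axis) and among the 3 hSRY-ON hearts (y axis) for the 12970 tested probes (grey). Ucp1 (red) lies farthest to the right, at 2.34 and 1.0, Car3 (blue) lies at 1.13 and 1.28, and the Ucp3 probes (red) lie within the cloud.

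Since Ucp1 is the defining transcript of brown fat, the other genes of this tissue were set beside it. Of 18 measured brown fat markers 8 were tested, and 4 fell and 1 rose (62.5% called beside 28.8% of all tested genes), with a median log2 fold change of -0.87. Dio2, Elovl3, Prdm16 and Zic1, which define brown fat together with Ucp1, were at background on all 6 arrays. The members that fell were Cpt1b and Fabp3, which heart muscle uses for fatty acids, Cox8b, a cytochrome oxidase subunit of heart and brown fat, at -0.77 (standard error 0.11, limma adjusted p = 0.00259), and the brown fat factor Ebf2. Ebf2 changed by -0.97 (standard error 0.24, limma adjusted p = 0.0212), a call lost without hSRY-OFF replicate 1, hSRY-OFF replicate 3, hSRY-ON replicate 1 or hSRY-ON replicate 2, with adjusted p-values up to 0.0702. The member that rose was Elovl6, a fatty acid elongase, at 2.59 (standard error 0.20, limma adjusted p = 0.000236). Cidea, a lipid droplet protein of brown fat, stood at 10.80, 10.95 and 11.001 in control and at 10.55, 8.94 and 10.11 in hSRY-ON replicates 1, 2 and 3 and was not called (limma, adjusted p = 0.0691). Within each group these normalized values had the heart order of Ucp1, although every hSRY-ON heart lay below every control. On the deposited scale hSRY-OFF replicate 3 was instead the dimmest control for Cidea, at 1685 against 2186 and 2582. The summed level of the list, in normalized intensity, was 68400 to 70610 for control and 35160 to 40170 for hSRY-ON hearts. Without Fabp3 and Cox8b, which heart muscle also expresses and which were left out after values had been seen, it was 7259 to 8320 and 4328 to 4817. This smaller sum still held Cpt1b, which heart muscle uses as well. Cpt1b stood at 12.08, 12.14 and 11.50 in hSRY-OFF and at 10.19, 10.38 and 10.66 in hSRY-ON hearts. How much of the lower sum came from Cpt1b was not tested.

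Single genes of the fat cell and brown fat lists shared features of the Ucp1 profile, a selection made after values had been seen. Adipoq, the fat cell hormone adiponectin, had normalized log2 values of 4.82, 5.49 and 5.84 in hSRY-OFF and of 7.49, 6.07 and 7.04 in hSRY-ON replicates 1, 2 and 3. Within each group its highest and lowest hearts were those of Ucp1 on this scale, whereas on the deposited scale hSRY-OFF replicate 2 was the brightest control, at 206 against 166 and 168. Its log2 fold change was 1.48 (standard error 0.39, limma adjusted p = 0.0265), a call lost under 6 of 15 alternatives with adjusted p-values up to 0.0824, namely with no probe filter, with blocking on replicate number, and on leaving out the control hearts 1 or 2 or the hSRY-ON hearts 1 or 3. On the normalized scale Cfd, which encodes adipsin, was also highest in replicate 3 of the controls and in replicate 1 of the hSRY-ON hearts. It was lowest in replicate 3 of the latter, and was not called (log2 fold change 1.26, standard error 0.46, limma adjusted p = 0.0818). On the deposited scale hSRY-OFF replicate 3 was the dimmest control for Cfd, at 171 against 175 and 191. Kng1, a kininogen of the brown fat list, was not tested and was above background only in hSRY-ON replicates 1 and 3, the hearts with the highest Ucp1. Whether its transcript came from fat was not tested. Other genes of the fat cell list ran differently. Fabp4, the fatty acid binding protein of fat cells, was above background in hSRY-OFF replicates 1 and 2 alone, at 5.96 and 5.71, and Dgat2, an enzyme of triglyceride synthesis, changed by -0.76 (standard error 0.30) and was not called (limma, adjusted p = 0.096). Over the whole fat cell list 10 of 17 measured genes were tested, 2 rose and 1 fell (30.0% called, near the 28.8% of all tested genes), and the summed level spanned 4734 to 5828 for control and 3956 to 5806 for hSRY-ON hearts. Cidec, Lep, Pck1, Plin1 (listed as Plin), Retn and Slc7a10 were above background on no array, and Aqp7, a glycerol channel, fell by 2.09 on the log2 scale (log2 fold change -2.09, standard error 0.33, limma adjusted p = 0.00335). In RNA of a whole organ, fewer cells of a type and less RNA per cell cannot be told apart, and the part of attached fat in the Ucp1 values was not tested.

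**Figure D4:**
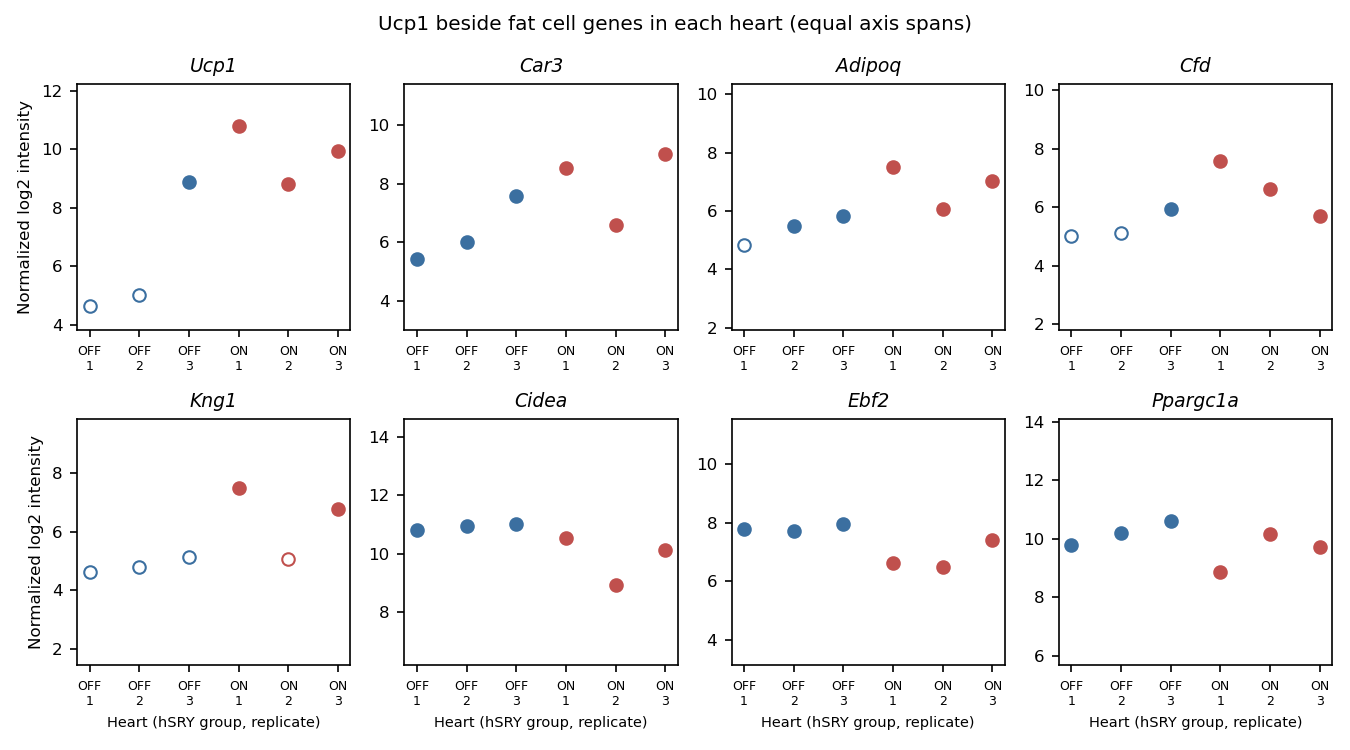
Normalized log2 intensity of Ucp1, Car3 and 6 genes of the fat cell and brown fat lists in each heart (blue hSRY-OFF, red hSRY-ON, filled points above background, open points not), with panels of equal span. Every gene shown is highest among the controls in replicate 3 on this scale, so this feature is not particular to Ucp1. Kng1 is above background in hSRY-ON replicates 1 and 3 only, and Cidea, Ebf2 and Ppargc1a have lower means in the hSRY-ON than in the control hearts.

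Upstream of Ucp1, brown fat is switched on through beta-adrenergic receptors, cyclic AMP and lipolysis. Of 12 tested genes of this signalling 4 fell and 1 rose (41.7% called beside 28.8% of all tested genes), with a median log2 fold change of -0.35. Adrb1, the main beta receptor of heart muscle, changed by -0.95 (standard error 0.29, limma adjusted p = 0.0468), a call lost under 7 of 16 alternatives with adjusted p-values up to 0.132, among them each heart left out except hSRY-ON replicate 2. Adrb3, the receptor typical of fat cells, was above background only in hSRY-ON replicate 1 and was not tested. Mgll, a monoglyceride lipase, changed by -0.90 (standard error 0.12, limma adjusted p = 0.00164), and Prkaca, the catalytic subunit of protein kinase A, by -0.55 (standard error 0.12, limma adjusted p = 0.0116, lost without hSRY-OFF replicate 1 and without normalization between arrays, with adjusted p-values up to 0.125). Lipe, the hormone-sensitive lipase, rose by 0.71 (standard error 0.19, limma adjusted p = 0.0301), but its other tested probe changed by -0.17, and the call was lost under 7 of 15 alternatives, with adjusted p-values up to 0.19, among them each of the control hearts 1 and 2 and the hSRY-ON hearts 1 and 2 left out.

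Markers of other cells that carry uncoupling proteins were measured as well. Of 17 tested genes of macrophages and monocytes, in which Ucp2 is known to be expressed, 10 rose and 0 fell (58.8% called beside 28.8% of all tested genes), at a median of 0.87 (0.67 with the dim gene Cd163 at its bound) on the log2 scale and a summed level of 11130 to 14130 in hSRY-OFF against 21610 to 22020 in hSRY-ON hearts. Cd14, a receptor of monocytes, rose by 1.30 (standard error 0.37, limma adjusted p = 0.0345), a call lost under 5 of 16 alternatives with adjusted p-values up to 0.105, among them each control heart left out and hSRY-ON replicate 1 left out. Cd163, a scavenger receptor of macrophages, was at least 1.36-fold higher (limma adjusted p = 0.00717). Cd163 passed the filter only through the hSRY-ON hearts, so it had to differ to be tested, which its adjusted p-value does not allow for. C1qc, a complement component made by macrophages, rose by 1.12 (standard error 0.17, limma adjusted p = 0.00272) and Cd68, a lysosomal protein of macrophages, by 0.99 (standard error 0.16). Emr1 was not called, and Fcer1g, Itgam and Ptprc were above background on no array. All 3 Ucp2 probes were at background in the hSRY-ON hearts. Of the lymphocyte and thymocyte markers 7 of 17 were tested. Of these 2 fell, Cd3d and Cd3g, both near background (28.6% called, near the 28.8% of all tested genes). The summed level was 2279 to 2587 for control and 1825 to 2446 for hSRY-ON hearts, while Cd3e, Cd4, Cd8a and Rag1 were above background on no array. Both calls were lost under most alternatives, Cd3d under 9 of 11 and Cd3g under 8 of 14, with adjusted p-values up to 0.132.

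Ucp3 is also a gene of skeletal muscle. The fast myosin genes Myh1, Myh2 and Myh4, which define adult skeletal muscle, were at background on all 6 arrays. Of 7 tested skeletal muscle genes 3 fell and 2 rose, a share of 71.4% called beside 28.8% of all tested genes. The summed level was 16050 to 17980 for control and 39390 to 46310 for hSRY-ON hearts, but without Tnnt1, left out after values had been seen, it was 13510 to 15350 and 10930 to 16260. The fast troponin gene Tnni2 fell (log2 fold change -1.91, standard error 0.18, limma adjusted p = 0.000559), whereas Tnnt1, the slow troponin T, rose by 3.51 (standard error 0.11, limma adjusted p = 1.18e-05). The perinatal myosin gene Myh8 changed by -1.42 (standard error 0.32, limma adjusted p = 0.0146, and 0.0511 without hSRY-ON replicate 1), with -0.41 for its other tested probe, and Actn3, an actinin of fast muscle, was at least 3.10-fold higher (limma adjusted p = 0.000716). This Actn3 probe passed the filter only through the hSRY-ON hearts, so it had to differ to be tested, which its adjusted p-value does not allow for. Of the 20 cardiomyocyte markers 7 fell and 2 rose (45.0% called beside 28.8% of all tested genes), at a median of -0.19 on the log2 scale and a summed level of 405700 to 422600 for control and 360700 to 407900 for hSRY-ON hearts. This sum is limited by probes near the top of the scale, where quantile normalization leaves little difference between arrays. Myl2 at 15.37 and Nppa at 15.42 had an SD of 0 among the hSRY-ON hearts. Tnni3, the cardiac troponin I, fell (log2 fold change -1.13, standard error 0.21, limma adjusted p = 0.00656), and Myh7, the slow myosin of the fetal heart, rose by 2.94 (standard error 0.18). Pln, the inhibitor of the calcium pump, changed by -1.47 (standard error 0.29, limma adjusted p = 0.00908), and the cardiac transcription factor gene Nkx2-5 by 0.68 (standard error 0.12, limma adjusted p = 0.00493, and 0.198 without normalization between arrays). The part of these cells in the values of Ucp3 was not tested.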

How the data were processed

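Total RNA of 3 hSRY-ON and 3 hSRY-OFF hearts was labelled with biotin and hybridized to MouseRef-8 BeadChips. The authors deposited for each probe and heart a mean bead intensity on a linear scale, neither normalized nor background-corrected between arrays, and a detection p-value against the negative-control beads. The summarising software is not given in the sources used here. Intensities were processed with R 4.3.3 and limma 3.58.1 (neqc, offset 16), with plots from matplotlib 3.10.9 (Python 3.11.15). Probes with a detection p-value under 0.05 on at least 3 arrays were fitted with lmFit and eBayes, with group as the only term and Benjamini-Hochberg adjustment over all of them. A gene of a list is given by its brightest tested probe, under its symbol in the table or another name in RefSeq (GRCm38.p6). The members, the 10 gene lists and the tests were chosen with earlier results of these data known. With 3 hearts against 3, no two-sided exact permutation p-value can fall under 0.1, and the number of arrays limits the precision. By rule, all Ucp probes are named, tested genes of the carrier, regulator and brown fat lists may be named, and each other list is named by its 2 called genes with the largest change in each direction and its defining markers at background. The 5 most alike profiles and the chromosomal neighbours are named as well. Pdk4, C1qc, Cd68, Emr1, Prkaca, Cfd, Fabp4, Dgat2, Kng1 and Cidea and the genes of the plot beside Ucp1 were in part named after values had been seen. The steps were also run on simulated data with large changes and with a spread within groups capped below that of Ucp1. That run does not measure how often smaller changes are called. Other settings of background, scaling, filter, variance and replicates were tried.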

Additional observations from a re-analysis of the deposited data

How the results depend on the processing

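Under the other settings tried no tested Ucp probe changed direction, and under the 3 other scalings no called gene of the lists did. The log2 fold change of Ucp1 was 2.13 without background correction and 2.74 with normexp and an offset of 50, against 3.67. The log2 fold change of the dimmer Ucp3 probe was -0.35 without background correction and -0.58 with normexp and an offset of 50, against -1.13, and that of the brighter probe was -0.64 and -0.88, against -1.26. Without normalization between arrays 1897 probes were called in place of 3567. With only probes detected on all 6 arrays, Ucp1 and the dimmer Ucp3 probe were not tested. Under that filter 4 regulators in place of 7, 0 fat cell genes in place of 3, and 3 skeletal muscle genes in place of 5 were called. Of the adrenergic genes 2 were called without normalization and 3 with the replicate block, in place of 5. Of the fat cell genes 5 were called with an intensity trend and 1 with the replicate block. Of the lymphocyte genes, 2 as reported, 0 were called without background correction, with median scaling, with detection on all arrays and at a detection threshold of 0.01, and 1 with normexp, without normalization, without the probe filter, with an intensity trend and with the replicate block. The causes were not tested beyond the fewer probes that stricter filters leave.

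Leaving out single hearts, the log2 fold change of Ucp1 ranged from 2.89 to 5.07, that of the dimmer Ucp3 probe from -1.40 to -0.89 and that of the brighter from -1.47 to -1.11. The probes called ranged from 2206 without hSRY-OFF replicate 1 to 3669 without hSRY-OFF replicate 3. The called genes ranged from 3 to 6 for regulators, 1 to 5 for adrenergic, 1 to 3 for fat cell, 0 to 1 for lymphocyte, 5 to 9 for cardiomyocyte and 3 to 5 for skeletal muscle genes. Several hearts left out gave the lowest count for most of these lists. The other lists stayed within 1.5 times of the reported count. With the replicate number as a block 2842 probes were called, 2729 of them shared with the 3567. Deviations of hearts with the same number correlated at -0.03, 0.04 and -0.07, and those of hearts with different numbers at -0.06 to 0.09. These correlations cannot show whether hearts with the same number shared a litter or a chip, and no label gives either. Of 75 called genes of the lists and the most alike profiles, 50 kept their call under every alternative that tested them. Values near background have little precision, which limits Ucp2, the dimmer Ucp3 probe and Ucp1 in the controls.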
